A study of Sus scrofa with 4 samples.

Results

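Transcripts of 7 intermediate filament genes were followed in porcine (Sus scrofa) blastocysts: NEFL, KRT8, KRT18, KRT19, VIM, LMNA and LMNB1. They were found by gene symbol in the annotation of the array, which names 11909 genes in all, and the 7 genes had 11 of the 43794 probes: 1 each for NEFL, KRT19 and LMNA, and 2 each for KRT8, KRT18, VIM and LMNB1. NEFL was chosen by its ratio of coculture over control on these same arrays, and the set around it was drawn up with results of these arrays known. Ratios between the conditions are therefore given below as a description, with their spread over arrays and without a test.

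Intermediate filaments are the cytoskeletal fibres that give cells and nuclei their resistance to stretch, and their subunits differ by cell type. Simple epithelia, among them the trophectoderm that forms the outer wall of the blastocyst, build them from a type II keratin paired with a type I keratin, typically KRT8 with KRT18 or KRT19. Vimentin forms the filaments of mesenchymal cells, neurofilament proteins those of nerve cell processes, and the lamins form a meshwork under the inner nuclear membrane of nearly every cell.

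Each of 4 two-colour arrays held RNA of a blastocyst pool grown from cumulus-oocyte complexes that were matured together with porcine luteal cells (coculture) and RNA of a pool from complexes matured without them (control). The labels describe 4 pools of 10 blastocysts each, taken on days 7 and 8, and number the arrays as biological replicates 1 to 4; the sources used here do not give the day of each pool or its relation to donors or culture batches. Coculture RNA carried Cy5 and control RNA Cy3 on replicates 1 and 2, and the dyes were exchanged on replicates 3 and 4. The labels do not say whether the 4 pools are per condition or in all, so a pool may lie on more than 1 array. All errors and p-values rest on the spread between such pairs of pools, which may be technical.

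A probe counted as detected in a channel where its intensity passed a limit of mean plus 2 SD over that channel's 153 negative-control spots, 702 to 935 in Cy3 and of 699 to 978 in Cy5. By this limit 25.6% to 34.8% of all probes were detected in coculture channels and 23.5% to 34.8% in control channels, with the higher share in the Cy3 channel of each array. Probes detected on at least 2 arrays of 1 condition were fitted with limma, 15631 in all, and none of them passed an adjusted p of 0.05 between the conditions (0%); 1226 (7.84%) had an unadjusted p under 0.05, of which 648 lay higher in coculture and 578 lower. Coculture stood above control on all 4 arrays for 982 probes (6.28%) and below it on all 4 for 1076 (6.88%). Each array's ratios were centred by loess, which would hide a shift common to most probes. In pooled embryos, fewer cells of a type and less RNA per cell cannot be told apart.

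The 11 probes fell into 3 ranges of intensity, each set here against the limits of its own channels and not against other probes. Those for KRT8 and KRT18 lay high on the scanner scale. Of their 32 channel values 30 reached at least 80% of the maximum of 65535, and the lowest stood at 63.9%. The single probes for NEFL, KRT19 and LMNA and the first probes for VIM and LMNB1 lay near the detection limits, and the second probes for VIM and LMNB1 were above the limit on no array. Those second probes did not enter the fit, which left 9 of the 11 probes; NEFL entered it through its coculture channels alone.

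**Figure D1:**
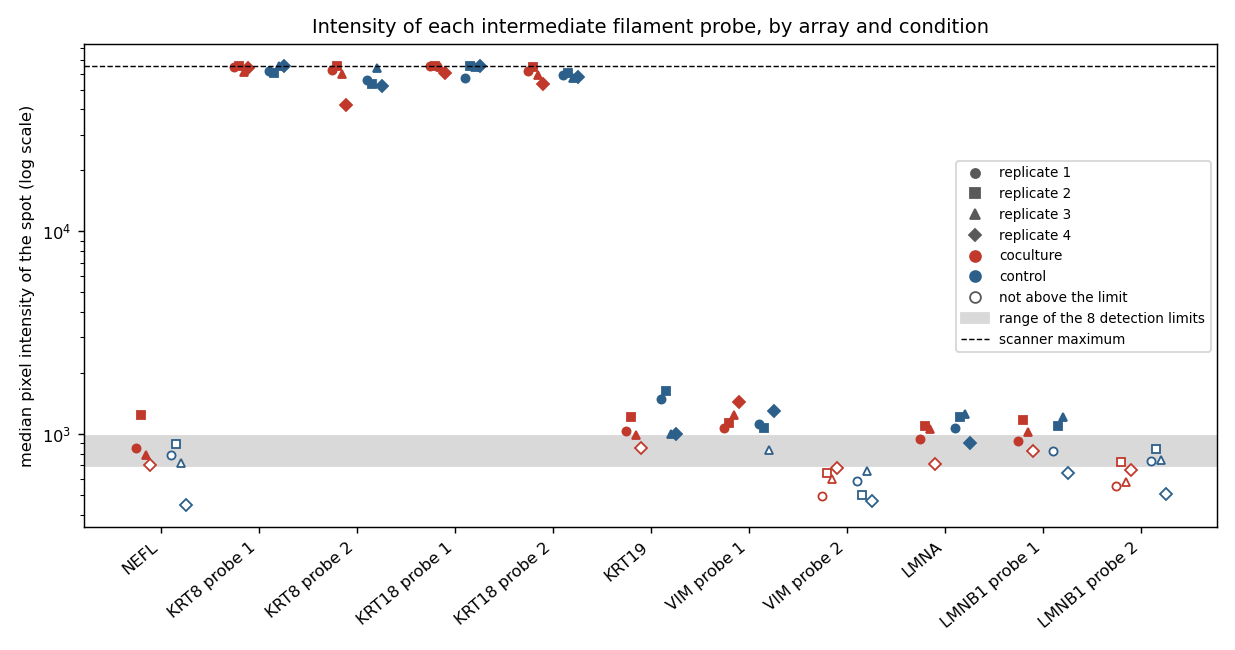
Median pixel intensity (log axis) of the 11 intermediate filament probes, coculture in red to the left of control in blue, with 1 symbol per replicate. Filled symbols exceed the detection limit of their own channel and open symbols do not; the grey band spans the 8 limits, and the dashed line is the scanner maximum of 65535, which the KRT8 and KRT18 probes approach.

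Keratin 8, the type II partner of the simple epithelial pair, showed no separation between the conditions on either probe. Its first probe read 64839, 65535, 61387 and 64120 in coculture on replicates 1 to 4, against 61943, 60599, 65535 and 65535 in control. Coculture was thus the higher channel on replicates 1 and 2 and the lower one on replicates 3 and 4, which is the order of the Cy5 channel over the Cy3 channel on every array. After normalization the log2 ratios of coculture over control were 0.02, 0.18, -0.03 and 0.12, with a mean of 0.07 ± 0.10 (SD, n = 4 arrays) and a 95% interval from the fit of -0.26 to 0.40. The second KRT8 probe read 62777, 65271, 59809 and 41873 in coculture, against 56007, 53464, 63669 and 52198 in control. Its log2 ratios of 0.11, 0.35, -0.02 and -0.17 changed sign with the dye orientation, and their mean was 0.07 ± 0.22 (SD, n = 4 arrays).

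Keratin 18, the type I partner, gave small ratios above 0 on all 4 arrays for both probes. The first KRT18 probe read 65535, 65535, 64995 and 60302 in coculture, against 56850, 65535, 65078 and 65266 in control, so that the raw order of the conditions differed between arrays. Its log2 ratios were 0.16, 0.06, 0.07 and 0.04, with a mean of 0.08 ± 0.05 (SD, n = 4 arrays; 95% interval -0.24 to 0.41). The second KRT18 probe read 61766, 64986, 58980 and 53505 in coculture, against 58917, 60726, 57133 and 58036 in control. Coculture was the higher channel there on replicates 1 to 3, and the log2 ratios of 0.02, 0.15, 0.12 and 0.03 had a mean of 0.08 ± 0.07 (SD, n = 4 arrays). With median centring in place of loess the fitted ratios of the first and second probe were 0.0121 and 0.0116. Over all tested probes 6.28% were above 0 on every array, as given above; the KRT18 probes belong to 1 gene and lie near the scanner maximum, and nothing is read from that share.

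The scanner range bounds what these keratin probes could record. Of their 32 channel values, 6 stood at 65535, 3 in coculture and 3 in control, and 5 of the 6 were in Cy5. At least 80% of the scale was reached by 30 of the 32, and the lowest value, KRT8 probe 2 in coculture on replicate 4, stood at 63.9%. A coculture reading at the maximum would have exceeded its control reading by at most 1.08-fold for KRT8 probe 1, 1.26-fold for KRT8 probe 2 and 1.15-fold for each KRT18 probe on the array with the most room. None of these probes was at the maximum on all 4 arrays of a condition. The mean over the pixels of a spot, which lay between 34769 and 43789 for these probes, is also bounded by pixels at the maximum. Larger rises of either keratin could not have been measured at this scanner setting. Where a reading stood at 65535 its true level is unknown, so a fall from such a level could be understated too.

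KRT19, a type I keratin of simple epithelia that can pair with KRT8, lay lower in coculture on 3 of 4 arrays. Its probe read 1037, 1214, 991 and 857 in coculture, against 1491, 1624, 1000 and 1005 in control, and was the lower in coculture on every array before normalization. The limit was exceeded in 3 coculture channels and in all 4 control channels. Normalized log2 ratios were -0.37, -0.35, 0.24 and -0.93, with a mean of -0.35 ± 0.48 (SD, n = 4 arrays; 95% interval -0.82 to 0.12), a fold of 0.784. Replicate 3 was the exception in sign: there the control channel was Cy5, whose limit of 952 was close to its reading of 1000. The fitted ratio was -0.64 without replicate 3 and -0.06 without replicate 4. In RefSeq's annotation of assembly Sscrofa11.1 the next coding gene to KRT19 is KRT15, a keratin of basal epithelial layers, which was above the limit on no array.

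Vimentin, the filament protein of mesenchymal and many migrating cells, had ratios above 0 on most arrays. The first VIM probe read 1077, 1140, 1235 and 1439 in coculture, against 1119, 1075, 837 and 1301 in control, with all 4 coculture channels and 3 control channels above the limit. Its log2 ratios of 0.31, 0.30, 1.27 and -0.0032 had a mean of 0.47 ± 0.55 (SD, n = 4 arrays; 95% interval -0.02 to 0.96), a fold of 1.38. The mean rests largely on replicate 3, the array on which control was not above the limit. The ratio fitted without replicate 3 was 0.15, and without replicate 4 it was 0.79. These are ratios of the fit with a dye term, not means over the arrays left. The second VIM probe read 493, 644, 600 and 681 in coculture, against 585, 503, 656 and 466 in control. All 8 readings were below their limits, so its log2 ratios of 0.37, 0.49, 0.35 and 0.95 describe values at the level of the negative controls.

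Lamin A and lamin C are splice products of LMNA, the lamin gene whose level in other tissues is tied to stiffness. The LMNA probe read 942, 1100, 1057 and 708 in coculture, against 1068, 1215, 1259 and 902 in control, the lower reading being in coculture on every array. The normalized log2 ratios were 0.17, -0.05, -0.13 and -1.42. Their mean of -0.36 ± 0.72 (SD, n = 4 arrays, 95% interval -0.85 to 0.14) came mostly from replicate 4, where the coculture channel was under its limit of 897. The ratio fitted without that array was -0.03, and without replicate 3 it was -0.68.

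Lamin B1, a farnesylated lamin that stays attached to the nuclear membrane, had a mean ratio above 0 on its first probe. That LMNB1 probe read 928, 1175, 1023 and 826 in coculture, against 829, 1096, 1216 and 645 in control, with 3 coculture and 2 control channels above the limit. Log2 ratios were 0.88, 0.26, -0.08 and 0.18, with a mean of 0.31 ± 0.41 (SD, n = 4 arrays, 95% interval -0.06 to 0.69). Without replicate 1 the fitted ratio was 0.16. The second LMNB1 probe was under the limit throughout, at 552, 724, 579 and 662 in coculture and 736, 840, 748 and 504 in control, and its log2 ratios of -0.16, -0.08, -0.45 and 0.44 were below 0 on 3 arrays. Averaged over both probes the LMNB1 ratio was 0.12.

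**Figure D2:**
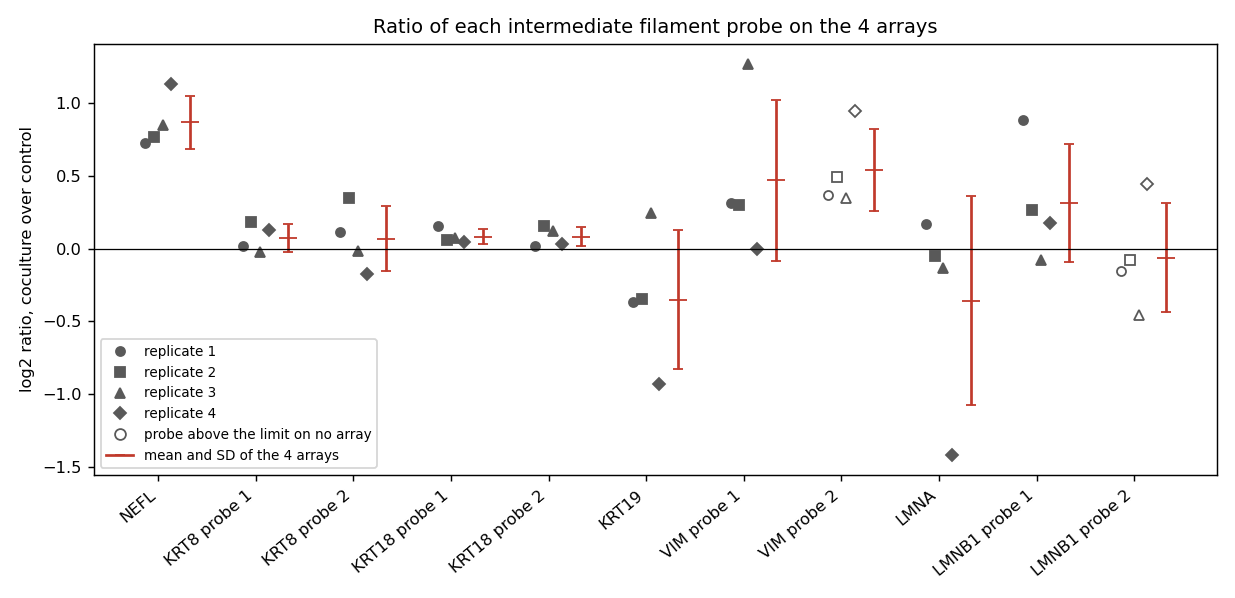
Normalized log2 ratio of coculture over control for the 11 intermediate filament probes, with 1 symbol per replicate and the mean and SD of the 4 arrays in red beside them. Open symbols are probes above the limit on no array; NEFL lies between 0.73 and 1.13, the KRT8 and KRT18 probes stay near 0, and KRT19, VIM, LMNA and LMNB1 spread widely over arrays.

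NEFL encodes the light subunit of the neurofilaments, the filament type of nerve cell processes. Its probe read 855, 1245, 784 and 706 in coculture, against 789, 888, 720 and 447 in control. Coculture was the higher channel on every array, whichever dye it carried, though the 2 ranges overlapped across arrays. The limit was exceeded by 3 of the 4 coculture readings, by 1.12-fold to 1.27-fold, and replicate 4 stayed under it at 0.787 of the limit; all 4 control readings were below theirs, at 0.559 to 0.950 of it. Log2 ratios were 0.73, 0.77, 0.85 and 1.13, with a mean of 0.87 ± 0.18 (SD, n = 4 arrays), a 1.83-fold difference of mean signals.

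NEFL was not well above background in any control pool, so its control level is known only as an upper limit. The mean coculture signal was 9.05 (log2), and the measured control mean was 8.18. With each array's control value raised to at least the lowest detected signal, the fold was 1.69 under the background correction used. On 3 arrays the control's own signal, though not detected, was already above that floor. The figure of 1.69 is therefore close to the measured fold and is not a lower bound. It moves with the processing and includes replicate 4, where coculture too was below the limit. Without background correction the measured fold was 1.35, and in the authors' deposited table, whose log2 values were 0.44, 0.57, 0.52 and 0.53 after turning to coculture over control, it was 1.43. The ratio ranked 8th highest among the 5353 named genes tested, and 3rd among the 340 whose coculture value was above control on all 4 arrays; it was chosen for this, and no test is attached. The pattern by array was nearest in AKAP9, a centrosomal anchoring protein of kinases (0.60, 0.43, 0.88 and 0.77), then in CPNE5, a calcium-dependent membrane-binding protein, and in TLR7, a receptor of single-stranded RNA, with Euclidean distances of 0.508, 0.633 and 0.653 over the 4 log2 ratios among 5329 genes compared.

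The other neurofilament subunits are NEFM, the medium chain and the neighbouring gene of NEFL in RefSeq's annotation of Sscrofa11.1, and NEFH, the heavy chain. NEFM read 870, 3267, 546 and 584 in coculture, against 647, 716, 598 and 480 in control, so that coculture on replicate 2 read 3.34 times its limit and the coculture readings of replicates 3 and 4 were below theirs. Its log2 ratios of 1.61, 3.37, 0.33 and -0.34 gave a fitted ratio of 1.24, and 0.80 without replicate 2. The higher ratios were those of replicates 1 and 2, where coculture carried Cy5. NEFM entered the fit through its coculture channels alone, so its ratio is a description and no interval or test is attached. Mean log2 signals of NEFM were 9.05 in coculture and 7.80 in control, a measured fold of 2.37. With the control values raised to the same floor as for NEFL it was 2.02, again with the control's own signal above the floor on 3 arrays. That figure too is not a lower bound. The measured fold was 1.74 without replicate 2 and 1.73 without background correction. The brighter NEFH probe read 864, 1077, 630 and 663 in coculture, against 822, 877, 760 and 668 in control. Its log2 ratios of 0.71, 0.61, -0.10 and -0.78 were above 0 where coculture carried Cy5 and below 0 where it carried Cy3, and its other probe was above the limit on no array.

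All 3 neurofilament genes were thus above the limit on no control array, and on 3, 2 and 2 coculture arrays for NEFL, NEFM and NEFH. Over the whole array 490 of 43794 probes (1.12%) were above it on at least 2 coculture arrays and on no control array, and 405 (0.925%) on at least 2 control arrays and on no coculture array. The coculture detections of NEFM and NEFH were on replicates 1 and 2, both with coculture in Cy5, and those of NEFL on replicates 1 to 3. Of 9 neuronal marker genes with a probe, 5 were above the limit on no array and 4 were tested, of which NEFM and NEFH, tested through their coculture channels alone, lay above 0 and the other two below. Summed over the 9 genes, neuronal marker intensity was 6982 to 12081 in coculture and 6662 to 9538 in control. The sum of 12081 is that of replicate 2 and includes the NEFM reading of 3267. The ranges do not pair the channels of an array, so no comparison of the conditions is read from them. STMN2, a microtubule regulator of growing axons, stood at -0.18 (95% interval -0.55 to 0.20, limma adjusted p = 0.823).

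**Figure D3:**
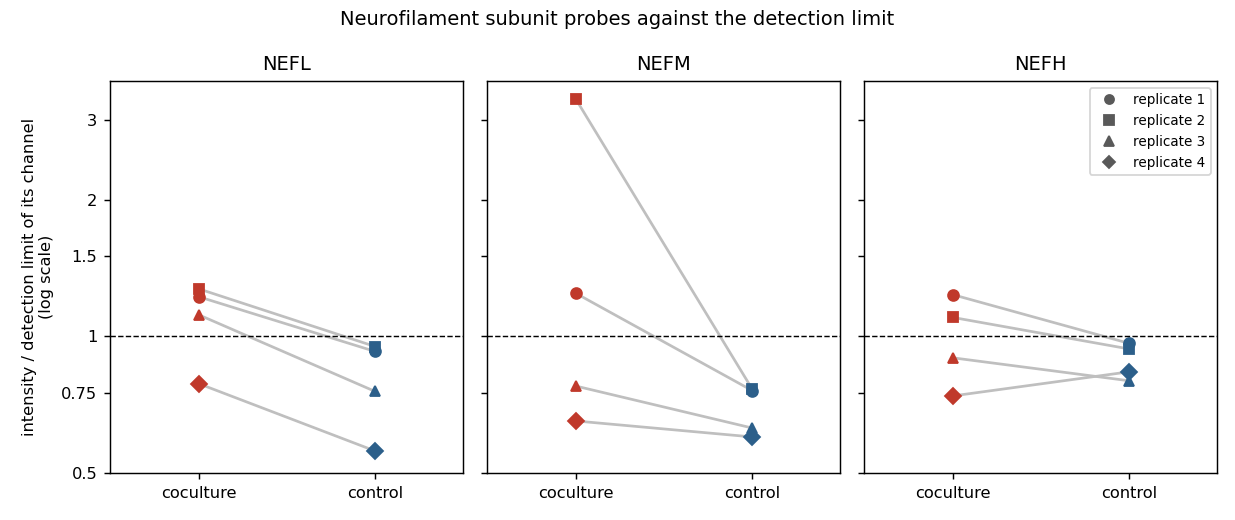
Intensity of the probes for the neurofilament subunits NEFL, NEFM and NEFH (brighter probe) divided by the detection limit of its own channel (log axis), coculture left and control right, with lines joining the channels of an array. All control readings lie under the limit (dashed line at 1); NEFL exceeds it in coculture on 3 arrays, NEFM and NEFH on 2.

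The dye effect, a quantity that does not enter the ratio between conditions, was tested for the 9 probes in the same limma fit over all tested probes. None of the 15631 probes passed an adjusted p of 0.05 (0%), while 1817 had an unadjusted p under 0.05. For the intermediate filament probes the fitted log2 effect of Cy5 over Cy3 ran from -0.16 for VIM probe 1 to 0.42 for LMNA (95% interval -0.08 to 0.91), with limma adjusted p-values of 0.485 to 0.993. For NEFL it was -0.12 (95% interval -0.45 to 0.21). Across all probes the turned ratios of arrays with opposite dyes correlated at -0.13 to -0.23 and those with the same dyes at 0.24 and 0.18, so the dye orientation is visible in the ratios as a whole.

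Replicate 4 stood apart for the dimmer probes. Of the 5 tested probes outside KRT8 and KRT18, 4 were below the limit in the coculture channel of replicate 4, all but VIM, against 2 in the control channel of that array, NEFL and LMNB1. On replicates 1 to 3 each of the 5 was above the limit in coculture. The lowest ratios of KRT19, LMNA, VIM probe 1 and KRT8 probe 2 and the highest ratio of NEFL came from this array. Without replicate 4 the fitted NEFL ratio was 0.80. The share of detected probes on that array, 29.8% in coculture and 23.9% in control, lay within the range of the other arrays, and its part in these ratios was not tested.

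NEFL, chosen by its ratio, is left out here. In the fit used, the 95% intervals of the 8 other tested probes all included 0. The half-width of such intervals over all tested probes had a median of 0.36 on the log2 scale, and smaller differences were not resolved with 4 arrays. In the fit with no filter on dim probes the interval of VIM probe 1 was 0.02 to 0.92. That of VIM probe 2, above the limit on no array, was 0.18 to 0.90. No test is read from these intervals.

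Companion genes of the 7 were taken from lists of the filament family and its partners. Among 46 other intermediate filament genes 18 had a named probe, and 11 of the 18 were above the limit on no array, among them the keratins KRT1, KRT5, KRT12 and KRT15, peripherin (PRPH) and internexin (INA). Of the 5 that were tested none passed: 3 were above 0 and 2 below, with a median of 0.06. NEFM and NEFH, the highest, passed the filter on dim probes through coculture channels alone, which favours a place above 0. NES, the neural progenitor filament gene nestin, was also above the limit on no array. KRT7, DES and LMNB2 had no named probe and were not analysed here.

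Partners of the nuclear lamina, which anchor lamins to the inner nuclear membrane or process them, were tested for 9 of 14 genes with a probe. None passed, and 8 lay above 0 and 1 below, with a median of 0.11. Over the representing probes of all 5353 tested genes the median was -0.0059 and 48.7% lay above 0. RCE1 counted as above 0 at 0.16, while another of its probes stood at -0.28. The RCE1 probe counted was above the limit on 2 coculture and 0 control arrays, and that of TMEM43 on 2 and 1. Both passed the filter on dim probes through coculture channels alone, which favours a place above 0. Genes of a list are not independent, and no test was run on the signs of this list or of those below. The members of smallest unadjusted p were TMEM43, an inner nuclear membrane protein, at 0.24 (95% interval -0.09 to 0.56; limma adjusted p = 0.706) and ICMT, which methylates the end of farnesylated lamins, at 0.25 (95% interval -0.13 to 0.63; limma adjusted p = 0.731). The median of the list was -0.03, 0.08, 0.39 and 0.13 on replicates 1 to 4. LBR and EMD had no named probe.

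Linkers of intermediate filaments to desmosomes, hemidesmosomes and other filaments were tested for 5 of 11 genes with a probe. None passed, and all 5 lay below 0 with a median of -0.08, where 48.7% of all tested genes lay above 0. DST, a plakin that ties keratin filaments to hemidesmosomes, stood lowest: its probe read 1954, 1586, 1838 and 1990 in coculture, against 3293, 3913, 2127 and 1999 in control. Control was the higher channel on every array there, and the fitted log2 ratio was -0.57 (95% interval -0.95 to -0.19; limma adjusted p = 0.629), but another DST probe stood at -0.03 and the remaining one was above the limit on no array. ITGA6, the alpha subunit of the hemidesmosomal integrin, was at -0.23 (95% interval -0.62 to 0.16; limma adjusted p = 0.770). DSP and JUP, desmoplakin and plakoglobin of the desmosome, were above the limit on no array, and PLEC had no named probe.

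Markers of the cell types that build or could accompany these filaments were read beside the members. Of 15 trophectoderm marker genes with a probe 8 were above the limit in all channels and 3 on no array. Of the 15, 11 were tested and none passed. The share of all tested genes above 0 was 48.7%. Among the 11, 10 lay below 0, with a median of -0.19, led by GATA2 at -0.48 (95% interval -0.90 to -0.07; limma adjusted p = 0.630) and TEAD4 at -0.45 (95% interval -0.92 to 0.01; limma adjusted p = 0.641), transcription factors of the trophectoderm; CDX2, its lineage factor, was at -0.19 and GATA3 at -0.14. Without replicate 2 GATA2 stood at -0.31 and TEAD4 at -0.16. Other probes of TEAD4 gave 0.01, -0.44 and -0.39, and those of CDX2 -0.25 and 0.15. Summed over the 15 genes their intensity was 68847 to 124254 in coculture and 80970 to 132366 in control. These ranges run across arrays and do not pair the channels of an array, so no comparison of the conditions is read from them. The keratins KRT8 and KRT18 had ratios of 0.07 to 0.08 on the same arrays and KRT19 one of -0.35. Those of KRT8 and KRT18 are bounded by the scanner maximum, so no steady level is read from them. How far the share of trophectoderm moved with the keratins was not tested.

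Of 13 fibroblast and stroma marker genes with a probe 6 were above the limit on no array and 5 were tested, 4 above 0 and 1 below, with a median of 0.18 and none passing. TAGLN, an actin-binding protein of smooth muscle and stroma, was at 0.55 (95% interval 0.04 to 1.07; limma adjusted p = 0.632), or 0.23 without replicate 2 and 0.88 without replicate 1, and DCN, a matrix proteoglycan, at -0.37 (95% interval -0.73 to -0.01; limma adjusted p = 0.635). The summed intensity was 10372 to 15173 in coculture and 11386 to 13492 in control, beside the vimentin ratio of 0.47. Granulosa, cumulus and luteal cell markers, 14 genes with a probe, were above the limit in all channels for 0 genes and on no array for 4; 6 were tested and none passed, with a median of 0.02. Their summed intensity was 9098 to 12245 in coculture and 10013 to 13145 in control. The summed ranges of either list do not pair the channels of an array, and no comparison is read from them. AMH, a granulosa hormone, was at 0.21 (limma adjusted p = 0.733) and NR5A1, a steroidogenic factor, at -0.25 (limma adjusted p = 0.782).

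**Figure D4:**
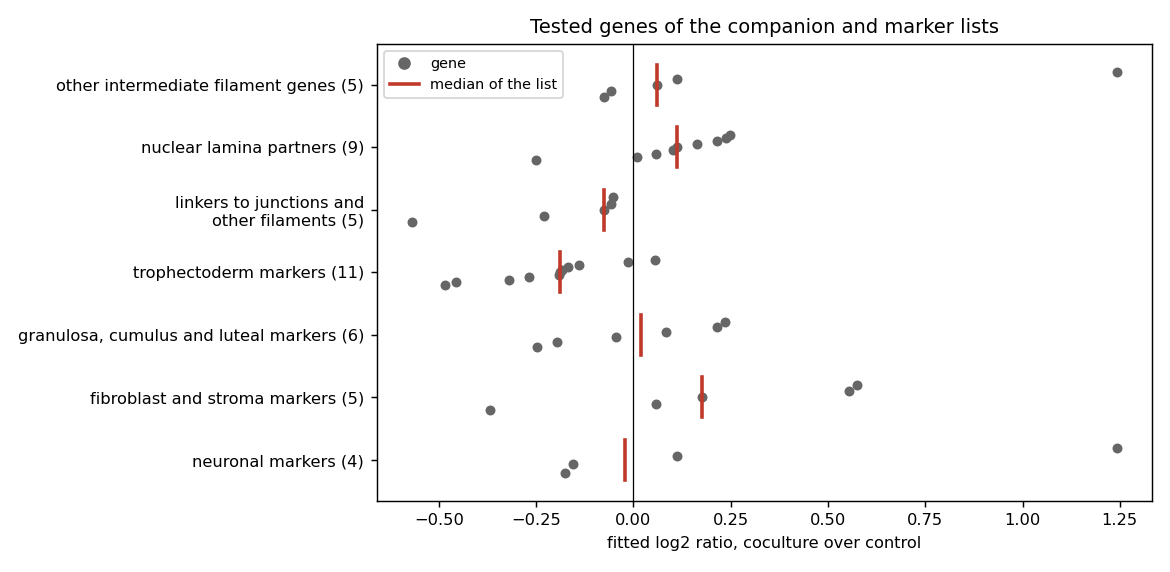
Fitted log2 ratio of coculture over control for the tested genes of the 7 companion and marker lists, with the number of tested genes in brackets and the median of each list as a red bar. Trophectoderm markers and linkers lie mostly below 0, lamina partners mostly above it, and NEFM is the point at 1.24 in both lists that hold it.

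KRT8 probe 1, which stands for its gene here, lay at or near the scanner maximum in every channel, which bounds its ratios, so its distance to any gene with ratios near 0 is small. The nearest in the 4 ratios were RPL10A, a ribosomal protein, ATP5G1, a subunit of the ATP synthase, and FAM151B, at distances of 0.0749, 0.0816 and 0.0880. RPL10A had ratios of 0.06, 0.13, -0.02 and 0.09, beside 0.02, 0.18, -0.03 and 0.12 for KRT8. For VIM they were THSD1, SSH1, a phosphatase that activates the actin-severing protein cofilin, and RRM2B, a ribonucleotide reductase subunit, at 0.299, 0.332 and 0.333. Each of these had its highest ratio on replicate 3, at 1.51, 1.52 and 1.28, as VIM did at 1.27. The genes were picked for their closeness to VIM, so this shared peak follows from the choice. The VIM control reading on replicate 3 was below its limit. KRT8 and KRT18 are next to each other in RefSeq's annotation of Sscrofa11.1, and their 4 probes had mean ratios within 0.07 to 0.08.

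Processing choices moved the ratios of NEFL and of the dim probes most. NEFL had ratios of 0.44 to 0.98 over 13 alternatives, all of 1 sign. Normalization between arrays, the open filter on dim probes and the fit without a dye term could not move its ratio of 0.87. Leaving out a replicate could not change its sign. The smallest values came from leaving the background in place, at 0.44, and from subtracting it and from the authors' deposited table, at 0.51 each, as the plot of fitted ratios by processing shows. Under other processing KRT19 ranged from -0.41 to -0.22 and LMNA from -0.40 to -0.16. VIM probe 1 then ranged from 0.29 to 0.50 and LMNB1 probe 1 from 0.11 to 0.33. Leaving out 1 replicate moved these probes further. KRT19 then ran from -0.64 to -0.06, LMNA from -0.68 to -0.03, VIM probe 1 from 0.15 to 0.79 and LMNB1 probe 1 from 0.16 to 0.47. Each of these probes had 1 sign throughout.

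**Figure D5:**
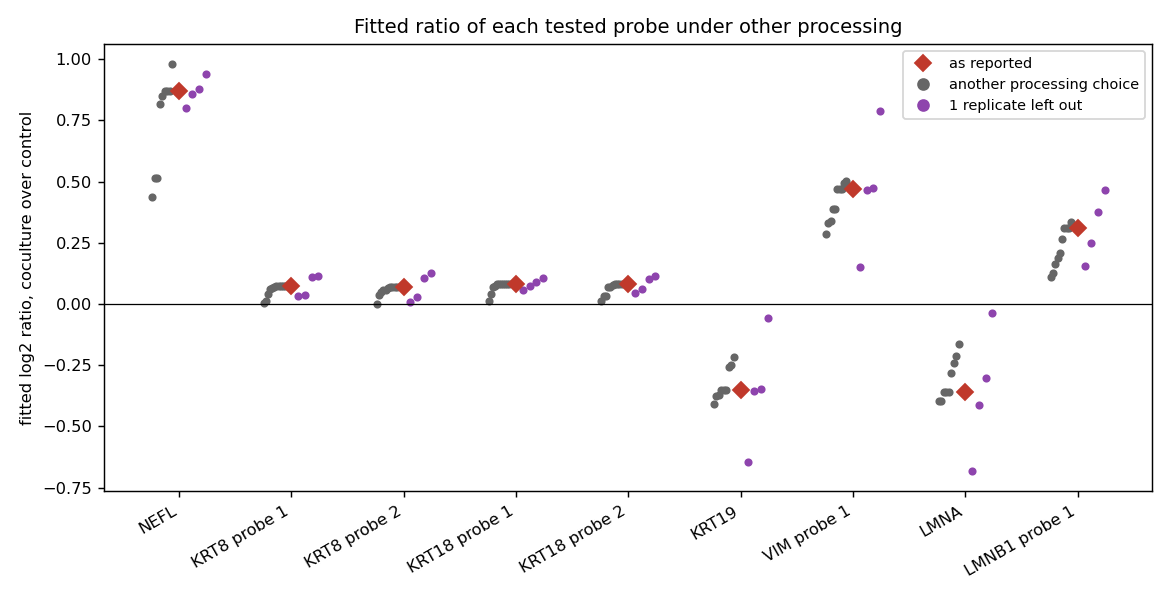
Fitted log2 ratio of coculture over control for the 9 tested probes as reported (red diamonds), under another processing choice (grey) and with 1 replicate left out (purple). NEFL spans 0.44 to 0.98, the KRT8 and KRT18 probes stay near 0 and reach 0.13 at most, and leaving out replicate 3 or 4 moves KRT19, VIM probe 1 and LMNA most.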

How the data were processed

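Blastocyst RNA was measured on 4 two-colour arrays, each with a coculture and a control pool. Per the labels' protocols, RNA was amplified and labelled chemically. The deposited scanner tables hold raw median and mean pixel intensity and local background intensity per spot and dye. The authors deposited, beside these, 1 table of log2 values, made with limma per the submitters' processing notes. Set against the scanner values it held log2 ratios of Cy5 over Cy3, not turned for dye (correlations 0.968 to 0.981); its column medians were -0.0133, -0.0130, -0.000395 and -0.0167, and its exact centring is unknown.

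Here median intensities were corrected with normexp (offset 50) and loess, with control spots at weight 0 and spots left out by image analysis missing, in limma 3.58.1 (R 4.3.3). Log2 ratios were fitted with lmFit and eBayes, with a coculture term and an intercept for dye, leaving 2 residual degrees of freedom plus 6.04 prior ones. Benjamini-Hochberg adjustment ran over all 15631 tested probes. The intercept takes up other differences between dye orientations. The floored control means used channel values after loess and Aquantile. The pipeline was tested on simulated data. The number of arrays limits the precision.

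Probe names came from the platform annotation: 18121 of 43794 probes had 1 symbol and 0 several, updated through RefSeq Sscrofa11.1 (17772 current, 104 by accession, 241 by synonym, 4 kept). A gene stands by its probe of highest mean intensity. Members and lists were chosen with earlier results of these data known. Named were all members, the 2 genes of smallest unadjusted p per list, a set of fixed genes, and the 3 genes nearest to NEFL, KRT8 and VIM. Alternatives changed background, pixel summary, offset, normalization, filter, dye term, source and replicates.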

Additional observations from a re-analysis of the deposited data

Results flagged for a closer look

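The first KRT18 probe had 1 coculture and 1 control reading far from the other readings of its condition. In coculture, replicate 4 read 60302 beside 64995 to 65535 on the other arrays, and the gap took up 0.901 of the range of log2 intensities, above Dixon's critical value of 0.829 for 4 samples. In control, replicate 1 read 56850 beside 65078 to 65535, a gap of 0.951 of the range. Both readings were in Cy3, and the readings beside them were at or close to the scanner maximum. Chance flags about 1 in 20 groups, and 2 of 33 sets of member values were picked out.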

How the results depend on the processing

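The ratio within an array already pairs the coculture and control pools of a replicate. No probe passed an adjusted p of 0.05 in limma in any of 14 alternatives for the contrast or 13 for the dye effect. The 1226 probes with an unadjusted p under 0.05 became 2643 with no filter on dim probes, 641 among the 7179 probes detected in every channel, 813 without the dye term, and 609 to 1503 with 1 replicate left out; the filters change the number of probes tested. Under median centring the ratios were 0.00413 and -0.000171 for KRT8 probes 1 and 2. They were 0.0121 and 0.0116 for KRT18 probes 1 and 2. As reported, with loess, these probes stood at 0.07 to 0.08. The cause was not tested. KRT8 probe 2 was thus reversed there, and the other 8 tested member probes kept their sign in every alternative run. For NEFL and KRT18, above 0 on all 4 arrays, leaving out a replicate could not change the sign. With 1 replicate left out, the ratios of NEFH ran from -0.0599 to 0.282, of ITGA6 from -0.422 to -0.0367, of ICMT from 0.116 to 0.382, of STMN2 from -0.327 to -0.0263, of NR5A1 from -0.501 to 0.00611 and of GATA3 from -0.307 to 0.0263. Aquantile leaves ratios within an array as they are. The filters and, with both dye orientations equally represented, the dye term also leave the fitted ratios of the member probes as they are. Signal over background limits NEFL, KRT19, VIM, LMNA and LMNB1, and the scanner maximum limits KRT8 and KRT18.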
